A study of Mus musculus with 6 samples.

Results

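Expression was compared between A3-1 mouse embryonic stem (ES) cells that received a small interfering RNA (siRNA) against Lin28a and A3-1 cells that received an siRNA against green fluorescent protein (GFP), a control with no target in these cells. The comparison uses 4 of the 6 arrays of the data set, 2 labelled siGFP and 2 labelled siLin28a, and the untreated arrays do not enter it. All 4 came from 1 cell line grown in medium with serum and LIF, a cytokine that holds mouse ES cells undifferentiated, and RNA was taken 48 h after the siRNA. Each group received 1 siRNA duplex, so effects of that duplex on other transcripts cannot be told apart from effects of less Lin28a. No label states if the 2 arrays within a group represent separate cultures. P-values therefore describe only how far these arrays scatter, and that scatter may be technical. Each value is a log2 expression level for 1 probe set, called a row here, so that a difference of 1 is a 2-fold difference. Of 35556 rows, 21797 carry exactly 1 gene symbol and were compared, and these cover 19946 genes. A row is described as higher or lower where both siLin28a values lie above, or both below, both siGFP values. Such rows were picked by the values compared here, so their differences are descriptions.

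LIN28A is an RNA-binding protein of pluripotent and early embryonic cells. It binds the precursors of let-7 microRNAs and recruits terminal uridylyltransferases, which mark them for decay, and it also binds many messenger RNAs. Mouse ES cells in serum and LIF resemble the naive epiblast of the embryo before implantation. When they move towards the post-implantation epiblast they shut down factors such as TBX3, KLF4 and NANOG and switch on DNMT3B, ZIC2 and POU3F1.

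The duplexes are shown because they are the only intended difference between the groups. Both strands are written 5′ to 3′ as deposited, without the dTdT overhangs, with bases 2 to 8 in capitals, the stretch that pairs first when a strand is loaded into Argonaute.
siGFP first strand: uGAAUUAGauggcgauguu
siGFP second strand: gACAUCGCcaucuaauuca
siLin28a first strand: gCAGAAGCgaagauccaaa
siLin28a second strand: uUUGGAUCuucgcuucugc
The labels do not name the guide strand. The 19 bases of the siLin28a strands are exact reverse complements. The siGFP strands pair over 18 of 19 bases, and the second strand differs from the reverse complement of the first by A1G, counted from the second strand's 5′ end. The GC content was 47.4% in both siLin28a strands, and 36.8% and 42.1% in the siGFP strands.

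Few genes differed by much between the groups. Among the 21797 rows, 1973 were higher with the Lin28a siRNA, which is 9.05%, and 2605 were lower, which is 12%. Most of these differences were small, and 170 higher and 263 lower rows differed by at least 0.5, a 1.41-fold difference. At least 2-fold differences were limited to 8 higher and 7 lower rows. A gap of 0.1 between the groups, the smallest step of the deposited values, put 2793 rows just inside the rule, with a median difference of 0.20 in size. Just outside it, 5527 rows had groups that touched, with a median of 0.15. limma called 0 rows at an adjusted p of 0.05, with a smallest adjusted p of 0.702 by limma over all rows, and 1360 rows (6.24%) had an unadjusted p under 0.05 (549 higher, 811 lower). With a robust prior limma called 19 rows. Least squares without a prior called 462, every one with no spread at all inside either group. An exact permutation test of 2 arrays against 2 cannot go below 0.333, so none is given.

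The arrays differed in their overall distribution, and this touches every count below. The upper quartile of all rows was 7.2 in both siGFP arrays and 7.0 and 7.1 in siLin28a replicate 1 and 2, while medians were 5.2 or 5.3. Dim and bright rows also leaned in opposite ways. Among rows with a mean of 4 to 6, 13.1% were higher and 8% lower, and among rows with a mean of 8 to 10, 2.54% were higher and 16.3% lower. The median difference was 0.05 in the former and −0.10 in the latter. A further quantile normalization brought these medians to 0.02 and −0.02, and it turned the split of rows from 43.1% higher among all that did not overlap to 53.4%. The split was 52.2% after cyclic loess and 25.8% once a constant was added to each array to equalise medians, which moved the median of all rows by −0.05. For gene lists the fitting background is thus that of genes of like brightness. Taking 1 row per gene, the brightest, 9.07% of 19946 genes were higher and 12% lower. Among the 8903 genes with a mean of at least 6, 4.19% were higher and 16.5% lower, with a median difference of −0.05. The part of the distribution shift in single genes was not tested.

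**Figure D1:**
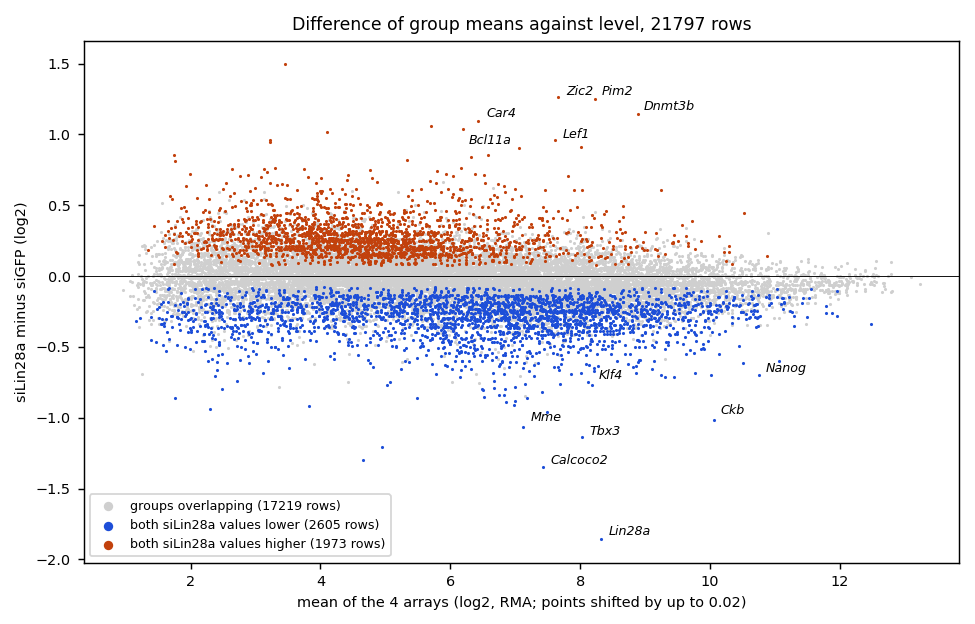
The difference of group means (siLin28a minus siGFP, log2) is plotted against the mean of the 4 arrays (log2) for 21797 rows. The 1973 rows with both siLin28a values higher and the 2605 with both lower are coloured, and Lin28a lies lowest at −1.85.

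Lin28a itself had the largest difference among rows with 1 symbol. Its level was 9.1 and 9.4 with siGFP, and 7.4 in both siLin28a arrays. The difference was −1.85 (SE 0.13, n = 2 per group), a 3.61-fold lower level, with an unadjusted p of 0.000506 and an adjusted p of 0.702 by limma. The groups lay 1.7 apart at their nearest values. Its paralog Lin28b, which also blocks let-7, had 6.1 and 6.5 against 6.1 and 6.6, and the groups overlapped. Of 13 measured genes listed for LIN28 and its uridylation partners, 2 were lower (Lin28a and Tut4) and 1 was higher (Msi1). Tut4, the terminal uridylyltransferase that LIN28A recruits, had 7.4 and 7.1 in siGFP and 6.8 and 6.9 in siLin28a arrays. Its relative Tut7 and Dis3l2, the exonuclease that degrades uridylated let-7 precursors, overlapped, at differences of −0.10 and 0.15. Msi1, an RNA-binding protein of neural progenitors, had 6.0 and 5.6 against 6.2 and 6.1.

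Let-7 microRNAs silence messenger RNAs that match their seed. Their mature sequences from RefSeq (GRCm38.p6) are shown for 3 members, with the seed in capitals, since less LIN28A would bear on targets of this seed. Of the 10 mature let-7 sequences in that table, 9 share it.
let-7a-5p: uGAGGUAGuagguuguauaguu
let-7d-5p: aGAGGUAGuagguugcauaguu
let-7g-5p: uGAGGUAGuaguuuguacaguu
Neither strand of the siLin28a duplex carries this seed. The array does not resolve mature let-7 from its precursors, and its 9 let-7 gene rows with 1 symbol were dim, between 2.3 and 5.9, with differences from −0.25 to 0.10. Of these rows 2 were lower, Mirlet7a-1 (4.4 and 4.3 against 4.2 and 4.2) and Mirlet7g (4.4 and 4.2 against 4.1 and 4.0). In both the groups lay only 0.1 apart, the smallest step of the values. Among all rows with a mean of 4 to 6, 8% were lower, and among those under 4, 9.27%.

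Messenger RNAs known as let-7 targets were near the background. Of 33 measured, 5 were lower (15.2%) and 2 higher (6.06%), and the median difference was −0.05. Of the 28 with a mean of at least 6, 4 were lower and 1 higher, where 16.5% and 4.19% of all such genes were. Nr6a1, an orphan nuclear receptor, was higher, with 7.7 and 7.5 against 7.9 and 8.2. Gatm, an enzyme of creatine synthesis, was higher too, with 5.2 and 5.2 against 5.7 and 5.6. Plagl1, a zinc finger factor from an imprinted locus, was lower, with 6.3 and 6.0 against 5.7 and 5.5, and so were Tgfbr1, a TGF-beta receptor (7.4 and 7.4 against 6.9 and 7.2), Arid3a, Hic2 and Igf1r. Among 18 genes of microRNA processing and silencing only Tnrc6c, a partner of Argonaute, did not overlap, with 7.6 and 7.3 against 7.2 and 7.0. It was thus the only lower gene among the 16 with a mean of at least 6, read against the same shares.

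The genes with the largest positive differences were headed by a kinase, a zinc finger factor and a DNA methyltransferase. Pim2, a serine/threonine kinase that promotes survival, had 7.7 and 7.5 in siGFP arrays and 8.8 and 8.9 in siLin28a arrays, a difference of 1.25 (SE 0.11, 2.38-fold). Zic2, a zinc finger factor of primed epiblast and neural cells, also differed by 1.25, with a wider spread (SE 0.32), from 7.4 and 6.7 to 8.5 and 8.1. Dnmt3b, which methylates DNA de novo, had 8.4 and 8.2 against 9.5 and 9.4, a difference of 1.15 (SE 0.11, 2.22-fold). In each of these 3 the groups lay at least 0.7 apart.

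Car4, a carbonic anhydrase anchored in the cell membrane, had 6.0 and 5.8 against 6.9 and 7.1 (difference 1.10, SE 0.13). Bcl11a, a zinc finger repressor best known for silencing fetal globin, had 5.6 and 5.7 against 6.6 and 6.8 (1.05, SE 0.11), and Vrtn had 5.2 in both siGFP arrays against 6.1 and 6.4 (1.05, SE 0.13). Lef1, a DNA-binding partner of beta-catenin, had 7.3 and 7.0 against 8.0 and 8.2 (0.95, SE 0.15). These 4 were separated by 0.7 or more, and the array pairs inside each group stayed within 0.3 of each other. Alox15, a lipoxygenase, Akr1b8, an aldo-keto reductase, and Pla2g7, which inactivates platelet-activating factor, differed by 0.85, 0.90 and 0.70. Syne2, which links the nucleus to the cytoskeleton, was measured by 4 rows, all higher, at 0.40 to 0.70. Mael, of the germline piRNA pathway, had 6.6 and 6.2 against 7.2 and 6.9. Cachd1, Zic5, Htr1b and Cyp2b23 complete the group at 0.65 to 0.75. Some members rest on 1 array. Crmp1, a cytoskeletal regulator of neurons, had 7.3 and 7.8 against 7.9 and 9.0 and differed by 0.35 without siLin28a replicate 2. D1Pas1, a DEAD-box helicase of the testis, differed by 0.40 without that array, and Cyp2b23 by 0.45. Gadd45g, a growth arrest gene, had 6.0 and 5.2 against 6.2 and 6.4 and differed by 0.30 without siGFP replicate 2, and Lrrc8c, a subunit of a volume-regulated anion channel, by 0.40.

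**Figure D2:**
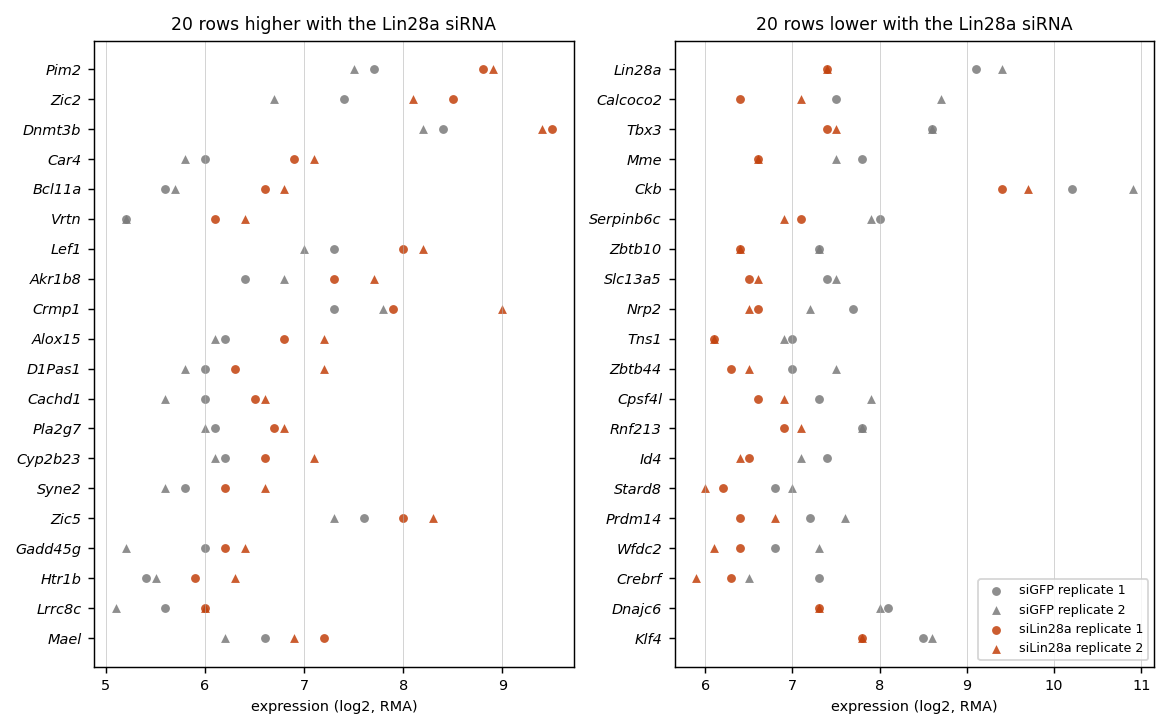
Expression (log2, RMA) in each of the 4 arrays is shown for the 20 higher and the 20 lower rows with the largest differences, chosen so that the groups do not overlap; grey marks siGFP, orange siLin28a, circles replicate 1 and triangles replicate 2. The groups lie 1.1 apart at their nearest arrays for Pim2 and 1 apart for Dnmt3b, whereas Crmp1 and D1Pas1 differ mostly in siLin28a replicate 2.

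The largest negative differences after Lin28a, among genes the naming rule admits, were those of Calcoco2, Tbx3, Mme and Ckb. Tbx3, a T-box factor of naive ES cells, had 8.6 in both siGFP arrays and 7.4 and 7.5 in siLin28a arrays (difference −1.15, SE 0.07, 2.22-fold, adjusted p 0.702 by limma). Mme, the membrane peptidase neprilysin, had 7.8 and 7.5 against 6.6 and 6.6 (−1.05, SE 0.13). Ckb, brain-type creatine kinase, was bright, with 10.2 and 10.9 against 9.4 and 9.7 (−1, SE 0.30), and differed by −0.65 without siGFP replicate 2. Calcoco2, an autophagy receptor, had the widest spread, with 7.5 and 8.7 against 6.4 and 7.1 (−1.35, SE 0.55), and differed by −0.75 without siGFP replicate 2. Its second row was lower as well, at −0.85.

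Several lower genes hardly varied inside a group. Zbtb10, a zinc finger repressor, was at 7.3 in both siGFP arrays and 6.4 in both siLin28a arrays. Slc13a5, the sodium-coupled citrate transporter, had 7.4 and 7.5 against 6.5 and 6.6. Tns1, a focal adhesion protein, had 7.0 and 6.9 against 6.1 and 6.1 in the row with its largest difference. Of its 6 rows 5 had negative differences, with 3 not overlapping. Its brightest row varied widely inside both groups and overlapped, with 7.8 and 9.0 against 7.6 and 8.9, a difference of −0.15. Rnf213, a ubiquitin ligase that interferon induces, was lower in both of its rows, at −0.80 and −0.70. Serpinb6c, a serpin protease inhibitor, had 8.0 and 7.9 against 7.1 and 6.9, and Dnajc6, the clathrin uncoating factor auxilin, had 8.1 and 8.0 against 7.3 and 7.3. Nrp2, a receptor for semaphorins, had 7.7 and 7.2 against 6.6 and 6.5, and Id4, an inhibitor of basic helix-loop-helix factors, 7.4 and 7.1 against 6.5 and 6.4. Zbtb44, Cpsf4l, Stard8, Wfdc2 and Crebrf differed by −0.80 to −0.85, and a second, brighter row of Zbtb44 by −0.50. Cpsf4l had −0.55 without siGFP replicate 2, and Crebrf, which restrains the unfolded protein response, −0.40 without siGFP replicate 1. Below the brightness limit of the naming rule, and picked after their values were seen, the homeobox gene Obox6 (5.6 and 5.0 against 4.5 and 3.5) and Serpinb1a (5.8 and 5.3 against 4.6 and 4.1) differed by −1.30 and −1.20.

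Naive pluripotency genes were lower in many cases. Of 36 measured genes, 18 were lower (50%) and 1 was higher, against 16.5% and 4.19% of all genes with a mean of at least 6, a level that all 36 reached. The median difference was −0.28, and it was −0.20 after a further quantile normalization or cyclic loess. The median level of the list was 9.05 and 9.10 in siGFP and 8.70 and 8.85 in siLin28a arrays. This list and its direction were known from earlier results on these arrays and are no independent evidence. In bulk RNA, fewer naive cells and less RNA per cell cannot be told apart.

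The transcription factors of that list led it. Prdm14, which keeps DNA methylation low in ES cells, had 7.2 and 7.6 against 6.4 and 6.8. Klf4, a Krüppel-like factor downstream of LIF, had 8.5 and 8.6 against 7.8 and 7.8. Tfcp2l1, another LIF target, had 9.7 and 9.9 against 8.9 and 9.3, and Nanog 10.9 and 11.3 against 10.3 and 10.5 (difference −0.70, SE 0.19). Zfp42, the marker REX1, had 10 and 10.2 against 9.3 and 9.5. Esrrb, Nr5a2 and Klf2 were lower by smaller amounts, at −0.30, −0.35 and −0.25. Outside the factors, the receptor Kit (9.2 and 9.2 against 8.4 and 8.7), the adhesion protein Jam2 (9.5 and 9.4 against 8.7 and 8.9) and Tcl1, a coactivator of Akt (9.3 and 9.1 against 8.7 and 8.5), were lower. Nr0b1, Stat3, Utf1, Fgf4 and Pecam1 overlapped, at −0.05 to −0.10. Id1, a target of BMP signalling, was the only higher member, with 6.4 and 7.0 against 7.2 and 7.4.

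Among the core ES cell factors, Pou5f1 (OCT4) and Sox2 had the same values, 11.2 and 11.4 in siGFP and 11 and 11.2 in siLin28a arrays, and their groups touched at 11.2. Both differed by −0.20 (SE 0.13), and by −0.10 without siGFP replicate 2 or siLin28a replicate 1. Of 11 core genes Sall4 and Trim28 were lower, at −0.25 and −0.20. Chd7, a chromatin remodeller that binds ES cell enhancers, was higher in its brightest row, with 8.6 and 8.2 against 8.8 and 8.8, a difference of 0.40 that was 0.20 without siGFP replicate 2. The array carries 30 rows for Chd7, and all 30 had a positive difference, from 0.15 to 0.55 with a median of 0.30, and 20 of them did not overlap. These rows read the same 4 RNA samples and are not replicates.

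**Figure D3:**
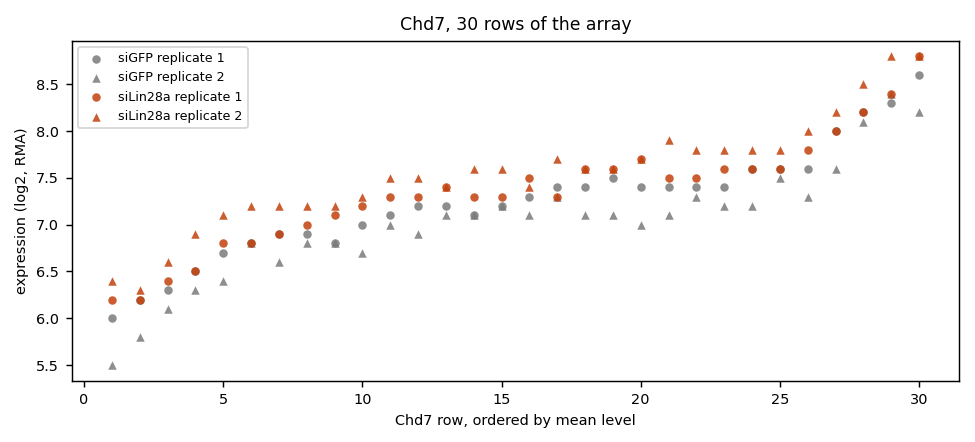
Expression (log2, RMA) of Chd7 in the 4 arrays is plotted for each of its 30 rows, ordered by mean level; colours mark the group and shapes the replicate. The siLin28a mean lies above the siGFP mean in every row, by 0.15 to 0.55.

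Genes of the formative and primed epiblast were higher in many cases. Of 26 measured genes, 11 were higher (42.3%) and 1 was lower (3.85%), and of the 21 with a mean of at least 6, 9 were higher, where 4.19% of all such genes were. The median difference was 0.20. It was 0.15 with medians equalised, 0.23 after a further quantile normalization, 0.24 after cyclic loess, and 0.35 without siLin28a replicate 1. Beside Dnmt3b, Zic2 and Lef1, the neural crest and neural factor Sox4 had 6.5 and 6.6 against 7.0 and 7.3, Sall2 5.1 and 5.4 against 5.8 and 5.9, and Zic5 7.6 and 7.3 against 8.0 and 8.3. Pou3f1 (OCT6), a factor of the early post-implantation epiblast, had 6.6 and 6.7 against 7.0 and 7.1. Sox3 and Myrf were each higher by 0.20. Fgf5, the classical marker of primed cells, stayed dim, at 4.9 and 4.9 against 5.5 and 5.0, and its difference of 0.35 was 0.10 without siLin28a replicate 1. Otx2, which drives the exit from the naive state, overlapped (9.3 and 8.5 against 9.2 and 8.9), as did Foxd3. Etv5, a target of FGF signalling, was the lower member, with 10.1 and 10.1 against 9.9 and 9.8. As with the naive list, the direction was known from earlier results on these arrays.

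**Figure D4:**
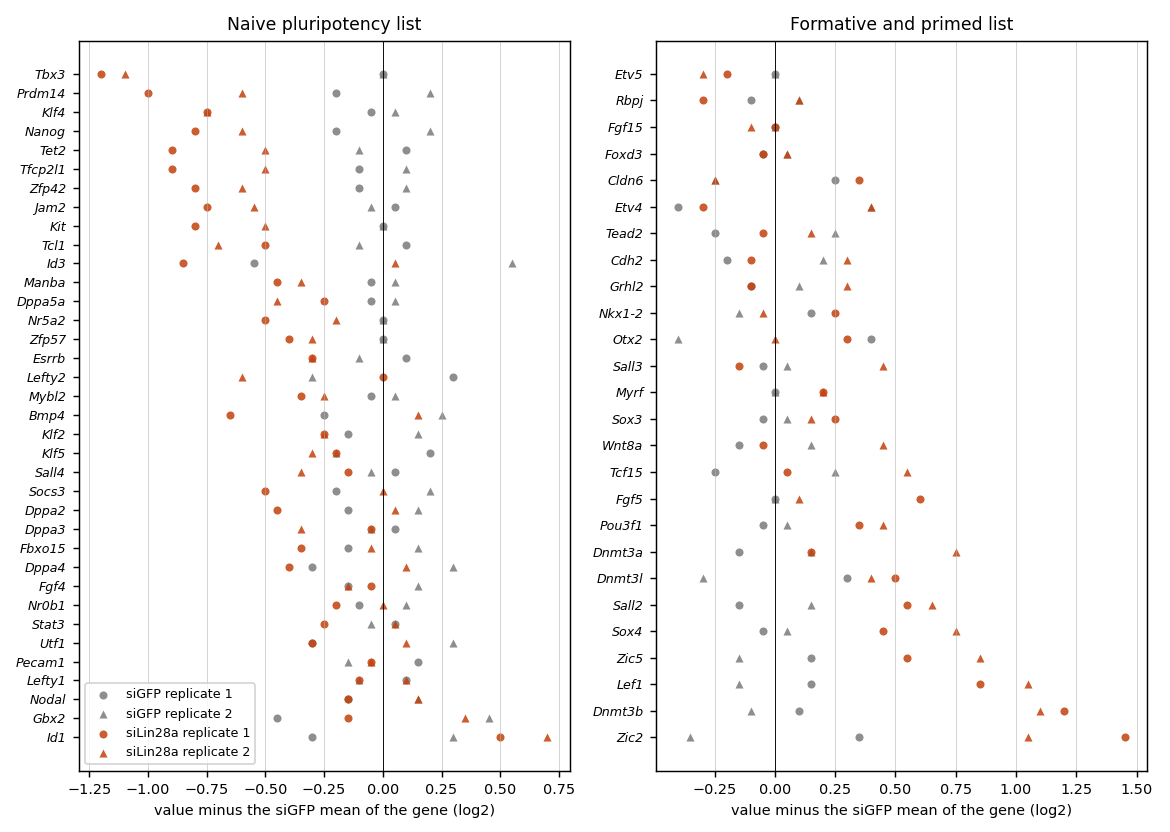
Each array's value minus the gene's siGFP mean (log2) is shown for the 36 measured naive genes and the 26 measured formative and primed genes, ordered by difference; grey marks siGFP, orange siLin28a, circles replicate 1 and triangles replicate 2. Tbx3 lies farthest left at −1.15 on average and Zic2 farthest right at 1.25.

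DNA methylation enzymes lie across both states. The de novo enzymes were on the positive side. Dnmt3b is given above, and Dnmt3l, its catalytically inactive cofactor, had 10.6 and 10 against 10.8 and 10.7, a difference of 0.45 that was 0.15 without siGFP replicate 2. Dnmt3a had 7.8 and 8.1 against 8.1 and 8.7, and its groups touched. The maintenance enzyme Dnmt1 and its recruiter Uhrf1 overlapped, at 0.05 and −0.10. Of the TET dioxygenases, which oxidise methylcytosine, Tet2 was lower (7.3 and 7.1 against 6.3 and 6.7), and Tet1 and Tet3 overlapped. Zfp57, which protects imprints, was lower with 10.5 and 10.5 against 10.1 and 10.2. In all, 2 of 21 genes were higher and 5 lower (23.8%). All of these were among the 19 with a mean of at least 6, where 4.19% of all such genes were higher and 16.5% lower.

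Promoters are shown for Pim2, Dnmt3b and Klf4, named genes on both sides with 1 start site each in the RefSeq table. Each covers 250 bases before to 50 after the start (GRCm38.p6). Capitals mark matches, on either strand, to the GC box GGGCGG, a TCF/LEF site CTTTGAT, a STAT site TTCNNNGAA, the octamer ATGCAAAT or TATAAA. No binding was measured here.
Pim2 (higher), chrX:7878056-7878355, plus strand: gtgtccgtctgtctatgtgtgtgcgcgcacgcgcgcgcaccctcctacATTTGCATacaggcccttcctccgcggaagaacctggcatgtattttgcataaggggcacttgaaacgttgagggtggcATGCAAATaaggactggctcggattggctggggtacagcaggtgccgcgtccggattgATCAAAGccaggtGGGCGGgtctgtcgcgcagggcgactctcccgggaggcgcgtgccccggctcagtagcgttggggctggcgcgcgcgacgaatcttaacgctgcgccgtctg
Dnmt3b (higher), chr2:153649199-153649498, plus strand: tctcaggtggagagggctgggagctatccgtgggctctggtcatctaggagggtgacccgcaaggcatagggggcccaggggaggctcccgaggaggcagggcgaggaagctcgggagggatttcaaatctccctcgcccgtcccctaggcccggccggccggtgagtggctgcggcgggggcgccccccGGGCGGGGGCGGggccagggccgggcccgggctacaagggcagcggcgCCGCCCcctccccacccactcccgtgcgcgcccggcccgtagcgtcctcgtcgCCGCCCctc
Klf4 (lower), chr4:55532426-55532725, minus strand: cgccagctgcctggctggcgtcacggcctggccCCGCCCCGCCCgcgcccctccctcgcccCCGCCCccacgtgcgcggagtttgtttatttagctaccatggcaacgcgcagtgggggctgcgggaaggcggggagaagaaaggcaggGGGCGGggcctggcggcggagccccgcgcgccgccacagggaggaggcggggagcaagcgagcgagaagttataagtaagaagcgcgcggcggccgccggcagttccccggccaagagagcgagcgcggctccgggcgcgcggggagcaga
The Pim2 window holds 2 octamer matches and 1 TCF/LEF match, against 1.74% and 3.73% of all 32851 windows of this length with at least 1. The windows of Bcl11a, Car4, Dnmt3b, Kit, Klf4, Lef1, Lin28a, Mme, Nanog, Tet2, Tfcp2l1 and Tns1 held 0 of either motif. Among the named genes looked at, which were a chosen part of them, only Pim2 had such a match. Where a gene has several start sites, only the first listed was read, here and in the gene sets below. Kit, Lef1, Mme and Nanog have 2, 4, 3 and 2 start sites in the RefSeq table. The Dnmt3b and Klf4 windows hold 4 GC boxes each, a motif found in 35.7% of windows. Among genes with a mean of at least 6, GC boxes were in 69.1% of 301 windows of higher genes, 72.5% of 1182 of lower genes and 68.0% of 5724 of overlapping genes, and TCF/LEF matches in 3.99%, 2.28% and 2.55%. Over genes of any brightness, GC boxes were in 42.2% of 1383 windows of higher genes, 58.0% of 1882 of lower genes and 49.6% of 12298 of overlapping genes. The median ratio of observed to expected CpG was 0.41, 0.72 and 0.63 in these, and 0.71, 0.81 and 0.80 in the sets with a mean of at least 6. Higher rows were more often dim, as given above, and the part of brightness in these shares was not tested beyond this split.

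Signalling pathways had members on both sides. Over all genes 9.07% were higher and 12% lower, and over those with a mean of at least 6, 4.19% and 16.5%. In the Wnt pathway 4 of 52 measured genes were higher (7.69%) and 5 lower (9.62%). All of these were among the 28 with a mean of at least 6. Lef1 led the higher ones, with the secreted Wnt antagonist Sfrp2 (7.8 and 7.4 against 8.3 and 8.1) and the receptors Fzd2 (5.9 and 6.2 against 6.6 and 6.6) and Fzd7 (9.6 and 9.4 against 10 and 9.8). The ligand Wnt7b, the antagonist Sfrp1, the receptors Fzd5 and Lrp6 and the homeobox target Cdx1 were lower, at −0.20 to −0.40.

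In the Nodal, activin and BMP pathway 7 of 40 genes were higher (17.5%) and 9 lower (22.5%). Of the 28 with a mean of at least 6, 4 were higher and 9 lower, where 4.19% and 16.5% of all such genes were. Lower members included inhibitory SMADs, Smad7 (8.5 and 8.6 against 7.8 and 8.0) and Smad6 (6.2 and 6.6 against 5.8 and 6.1), the Nodal-processing protease Pcsk6 (8.1 and 7.9 against 7.4 and 7.4) and the co-receptor Tdgf1 (12 and 12.2 against 11.8 and 11.8). Receptors Acvr1b, Acvr2a and Tgfbr1 were lower by 0.20 to 0.35. Higher members included the activin subunit Inhba (4.1 and 4.3 against 4.7 and 4.7), the Nodal cofactor Foxh1 (7.0 and 6.6 against 7.2 and 7.2) and the BMP targets Id1 and Id2 (6.8 and 6.8 against 7.1 and 7.4). The ligand Nodal had 8.4 and 8.7 in both groups.

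Of 25 genes of the LIF pathway 6 were lower (24%) and only Pim2 was higher. Of the 20 with a mean of at least 6, 5 were lower, where 16.5% of all such genes were. The relatives of Pim2, Pim1 and Pim3, overlapped, at −0.25 and −0.30. The receptor genes Lifr and Il6st and the transducer Stat3 overlapped, at −0.10 to −0.15, and Jak1 was lower by 0.15. Klf4 and Tfcp2l1, which lie downstream, had the largest negative differences of the list. The transcript of Lif itself was dim and lower, with 4.9 and 4.9 against 4.5 and 4.5. In the FGF-ERK pathway 2 of 37 genes were higher (5.41%, Egr1 and Fgf5) and 5 lower (13.5%, Ier2, Dusp1, Sos1, Etv5 and Jun). Egr1, an immediate target of ERK, had 7.0 and 6.6 against 7.2 and 7.2, while Ier2 had 8.4 and 8.4 against 7.9 and 8.2. Of 32 genes of insulin and IGF signalling 2 were higher, with Irs4, an adaptor of the insulin receptor, at 4.3 and 4.2 against 4.9 and 4.8, and 5 were lower (15.6%), with Pik3r1 at 6.1 and 6.0 against 5.6 and 5.8.

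Membrane and secretory genes are of interest because LIN28A binds many transcripts translated at the endoplasmic reticulum (ER). Of 48 genes for ER translocation and N-glycosylation 11 were lower (22.9%) and 0 higher, where 16.5% of all genes with a mean of at least 6 were lower, with a median difference of −0.10 that became −0.03 after a further quantile normalization. Magt1, a subunit of the oligosaccharyltransferase, had 8.4 and 8.5 against 7.9 and 8.2, and Alg6, which adds glucose to the glycan precursor, 6.8 and 7.0 against 6.4 and 6.7. Rpn2, Tusc3, Ssr2, Tram1 and Tram2 were lower by 0.20 to 0.25. Of 33 ER chaperones and genes of the unfolded protein response 6 were lower (18.2%), near that background, and 0 higher. All 6 were among the 31 with a mean of at least 6. Edem3, which trims misfolded glycoproteins, had 8.1 and 8.1 against 7.6 and 7.8, and the chaperones Hsp90b1, Pdia6 and Pdia4 were lower by 0.15 to 0.25.

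Receptors and adhesion proteins on the ES cell surface had members on both sides. Of 58, 8 were higher (13.8%) and 10 lower (17.2%). Of the 49 with a mean of at least 6, 7 were higher and 8 lower, where 4.19% and 16.5% of all such genes were. Beside Kit and Jam2, the tight junction protein Cldn4 had 8.7 and 8.8 against 8.3 and 8.3, the tetraspanin Cd9 9.9 and 10.1 against 9.6 and 9.6, and the adhesion protein Ncam1 5.9 and 5.6 against 5.5 and 5.2. Podxl, a sialomucin, had 6.9 and 6.5 against 7.5 and 7.0, and Efnb2, an ephrin, 5.9 and 5.8 against 6.3 and 6.3. The receptor tyrosine kinase Epha2, the Notch ligand Jag1 and the proteoglycans Sdc4 and Gpc4 were higher by 0.20 to 0.30.

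The stress lists did not share a direction. Of 42 genes of the integrated stress response 8 were lower (19.0%) and 0 higher. Of the 33 with a mean of at least 6, 7 were lower, where 16.5% of all such genes were. The median difference of the 42 was −0.15, and it was −0.05 without siGFP replicate 1 and −0.30 without siGFP replicate 2. Atf4, its central transcription factor, had 8.6 and 8.2 against 8.1 and 7.8, and Slc7a1, an amino acid transporter, 8.4 and 7.8 against 7.7 and 7.4. Without siGFP replicate 1 these 2 differed by −0.25 each, since that array was the higher of its group. Among 29 p53 targets 17 differences were positive and 8 negative, and 3 genes were higher (10.3%) and 2 lower. Of the 27 with a mean of at least 6, 3 were higher and 1 lower, where 4.19% and 16.5% of all such genes were. Among all 8903 genes of that brightness 2239 differences were positive and 5610 negative. The kinase Plk2 had 7.8 and 7.7 against 8.4 and 8.3, and Ddit4l 6.5 and 6.3 against 7.0 and 6.9. Genes of interferon response and sensing of double-stranded RNA had 3 of 41 higher (7.32%) and 7 lower (17.1%), where 9.07% and 12% of all genes were. Of the 18 with a mean of at least 6, 1 was higher and 4 lower. The zinc finger antiviral protein Zc3hav1 had 6.3 and 6.3 against 5.6 and 5.7 and the kinase Eif2ak2 6.3 and 6.0 against 5.6 and 5.9, while Ifitm3, which blocks virus entry, had 9.1 and 8.8 against 9.4 and 9.7.

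Of 42 Polycomb and other chromatin genes 8 were lower (19.0%) and 2 higher (4.76%). Of the 37 with a mean of at least 6, 8 were lower and 1 higher, where 16.5% and 4.19% of all such genes were. Suz12, a core subunit of PRC2, had 10.1 and 10.2 against 9.5 and 9.8, and its partner Mtf2 9.8 and 10.1 against 9.2 and 9.7. Pcgf5, Pcgf6 and Rnf2 of PRC1 and the deacetylase Hdac2 were lower by 0.25 to 0.45, while the PRC1 subunits Cbx2 and Cbx8 were higher by 0.20 and 0.30. Of 53 cell cycle genes 13 were lower (24.5%) and 2 higher (3.77%). Of the 47 with a mean of at least 6, 10 were lower and 2 higher, read against the same shares. The spindle checkpoint kinases Bub1 (9.1 and 9.2 against 8.5 and 8.8) and Ttk (7.7 and 7.7 against 7.3 and 7.3) were lower, as were Ccne2, Ccnd3, Rbl1 and Gmnn at −0.30 to −0.40. The CDK inhibitor Cdkn1c was higher, with 6.9 and 6.7 against 7.3 and 7.4, and Cdkn1b lower by 0.15. The median of the list was −0.05, and it was 0.00 after a further quantile normalization.

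Ribosomal protein and histone genes had few members that did not overlap. Of 53 cytosolic ribosomal proteins 2 were lower (3.77%) and 1 was higher, all by at most 0.15. All 53 reached a mean of 6, where 16.5% of all such genes were lower and 4.19% higher. Of 22 replication-dependent histone genes 21 had a negative difference, 1 was equal and 0 were positive. Their median of −0.18 ranged from −0.37 to −0.05 without 1 array, and was −0.09 after a further quantile normalization. Over all 19946 genes 9808 differences were negative and 7754 positive. Over the 8903 with a mean of at least 6, a level that 15 of the 22 reached, 5610 were negative and 2239 positive. Only 2 of the histone genes did not overlap, H2ac1 (9.9 and 9.3 against 8.7 and 9.1) and the dim H2ac8. H2ac1 differed by −0.40 without siGFP replicate 1. Glycolysis had 2 of 22 genes higher (9.09%) and 4 lower (18.2%). Of the 20 with a mean of at least 6, 2 were higher and 4 lower, where 4.19% and 16.5% of all such genes were. Eno3 had 6.4 and 6.5 against 6.8 and 7.0, and Pfkm 8.9 and 9.1 against 8.6 and 8.7. Sterol and fatty acid synthesis had 1 of 34 higher, Dhcr7 at 0.25, and 4 lower (11.8%), with Elovl6 at −0.45 (−0.25 without siGFP replicate 1) and Scd1 at −0.30.

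Markers of other cell types were mostly dim. The neural list had 10 of 31 genes higher (32.3%) and 6 lower (19.4%), with a median member level of 5.0 in both siGFP and 5.1 in both siLin28a arrays. Its summed linear level was 1490 and 1510 in siGFP and 1490 in both siLin28a arrays. Sox11, a factor of neural progenitors, had 6.1 and 6.3 against 6.6 and 7.1 and differed by 0.40 without siLin28a replicate 2. The neuronal genes Neurod1 and Dcx and the progenitor filament Nes were higher at levels of 5.1 or less, and Tubb3, Map2 and Hes1 were lower by 0.45 to 0.55. Most neural markers fall in the dim range in which 13.1% of rows were higher. Mesoderm and endoderm markers had 3 of 29 higher (10.3%) and 2 lower, with Gsc, Tbx6 and Mesp1 higher at 5.8 or less and the abundant lipid carrier Apoe lower (10.4 and 10.5 against 10.1 and 10). Their summed linear level was 2890 and 2860 in siGFP and 2650 and 2430 in siLin28a arrays. Such a sum weighs bright members such as Apoe most. Of the 29 differences 16 were positive and 7 negative, with a median of 0.05. Trophoblast markers had 2 of 21 higher and 4 lower (19.0%), with Tfap2c at 8.1 and 8.4 against 7.6 and 7.8 and Tead4 at 6.9 and 6.8 against 6.4 and 6.4. Their summed level was 1910 and 1830 against 1740 and 1810. Feeder fibroblast markers had 7 of 26 higher (26.9%) and 1 lower, where 13.1% of rows with a mean of 4 to 6 were higher, and 8 of the 26 reached a mean of 6. Their median difference was 0.05, with sums of 4950 and 4570 against 4590 and 4590. Acta2 (5.1 and 5.2 against 5.4 and 5.6) led the higher ones, Timp3 was lower by 0.40, and the defining collagen Col3a1 had 5.6 and 5.6 against 6.0 and 5.7. Of 44 germline genes 7 were higher (15.9%) and 6 lower, with Rpl10l at 8.2 and 8.6 against 8.8 and 9.0 and Dazl at 5.4 and 5.5 against 5.1 and 5.1. The part of these markers in the results above was not tested.

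**Figure D5:**
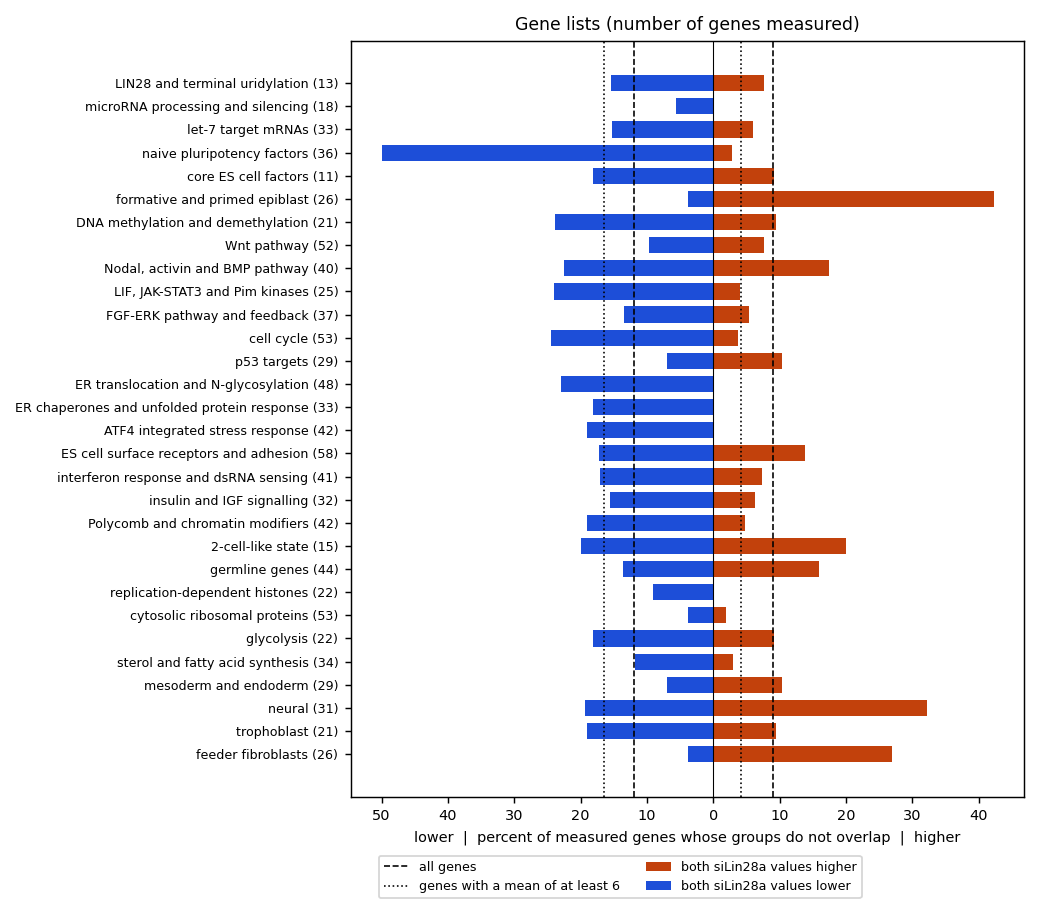
Bars give the percent of measured genes in each of 30 lists whose siLin28a values both lay above (right, orange) or both below (left, blue) the siGFP values, with the number measured in parentheses; dashed lines mark all genes (9.07% higher, 12% lower) and dotted lines genes with a mean of at least 6 (4.19% and 16.5%). The naive list reaches 50% lower and the formative and primed list 42.3% higher.

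A second row of the same gene gives a partly separate reading from the same RNA. Of 73 genes with several rows whose brightest row was higher, the second row was higher in 22 (30.1%) and lower in 2 (2.74%). Of 134 whose brightest row was lower, it was lower in 55 (41.0%) and higher in 6 (4.48%). Where the brightest row overlapped (792 genes), 5.56% of second rows were higher and 10.4% lower. Zic5, Zbtb44, Rnf213 and Calcoco2 each had 2 rows on the same side.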

How the data were processed

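The authors deposited log2 expression values, in steps of 0.1, made with Affymetrix Expression Console and RMA per the submitters' processing notes; RMA corrects background, quantile normalizes and summarises probe sets. Tool versions were not given in the sources used here, nor was a build. The scale was read as log2 from RMA's usual output. Gene names came from the platform's annotation, and 21698 rows matched RefSeq by Entrez number with 0 different symbols.

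Rows were tested two-sided with lmFit and eBayes of limma 3.58.1 (R 4.3.3) on the 4 siRNA arrays (2 residual and 1.27 prior degrees of freedom), with Benjamini-Hochberg adjustment over 21797 rows; errors are its moderated SE. The code was tested on simulated data. The number of arrays limits the precision. A gene in a list is its brightest row.

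The members, the 30 lists and the naming rule were chosen with earlier results of these data known. Named are Lin28a, Tbx3, Dnmt3b, Lin28b, Pou5f1, Sox2 and Nanog; the 20 largest differences each way with a higher-group mean of at least 6, passing over predicted genes, receptors of smell and pheromones, and small RNA genes; and in each list up to 4 members that did not overlap. Further list members in the text were chosen after their values were seen. Alternatives were other scalings, filters, priors, rows, all 6 arrays, a replicate block and leaving out each array.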

Additional observations from a re-analysis of the deposited data

How the results depend on the processing

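Lin28a, Tbx3 and Dnmt3b kept their direction in every alternative run for them. limma called 0 rows as reported and in each alternative except the robust prior (19 rows) and least squares without a prior (462 rows). The 19 rows include Lin28a, Tbx3, Dnmt3b, Pim2, Car4, Bcl11a, Vrtn, Lef1 and Mme. The 1973 higher rows became 1200 with medians equalised by a constant per array, 3275 after a further quantile normalization, 3790 after cyclic loess, 411 with rows of a mean of at least 6 and 3244 with every row of the table; the 2605 lower rows became 1589 and 4175 in the last 2 of these. Values after quantile normalization or loess are not in steps of 0.1, so fewer groups tie. Without 1 array, where 1 value replaces 2, 4540 to 5192 rows were higher and 5006 to 7217 lower. The naive median ranged from −0.38 to −0.27 without 1 array and was −0.20 after either non-linear scaling, and the formative and primed median ranged from 0.23 to 0.35 without 1 array. Lin28b (0.05) ranged from −0.20 to 0.30 without 1 array, and reversed when siGFP replicate 1 (−0.15) or siLin28a replicate 2 (−0.20) was left out; the cause was not tested. Of 138 named rows 54 changed by a factor above 1.5, or changed sign, when some single array was left out. Beyond the genes given with such a value in the report, those printed there were Tut4, Msi1, Tnrc6c, Tgfbr1, Sall4, Trim28, Id1, Egr1, Ier2, Dusp1, Ccne2, Magt1, Alg6, Rpn2, Hsp90b1, Eif2ak2, Podxl, Mtf2, Dhcr7, Gsc, Tbx6, Neurod1, Tubb3, Timp3 and Col3a1.

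Same-numbered arrays of the 2 groups deviated together (correlation of deviations 0.357 across rows), but with 2 pairs this is only a hint. With the replicate number as a block limma called 0 rows, with 3763 at an unadjusted p under 0.05, and the differences of Lin28a, Tbx3 and Dnmt3b were −1.85, −1.15 and 1.15.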

Other observations

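Rows that carry several symbols were not compared gene by gene, and 4 of them differed by as much as Lin28a or more, in the other direction. Zscan4 genes, markers of the rare ES cells that resemble the embryo at the 2-cell stage, share 3 rows that no single copy can claim. They had 4.6 and 4.6 in siGFP against 6.1 and 6.9 in siLin28a arrays, 5.4 and 5.4 against 6.7 and 7.9, and 4.6 and 4.5 against 6.0 and 6.8, with differences of 1.90, 1.90 and 1.85. A row shared by 9 predicted genes had 4.4 and 5.0 against 6.5 and 7.0, a difference of 2.05. These rows were picked after their values were seen. The Zscan4 copies have no row of their own with 1 symbol. Among 15 other genes of the 2-cell-like list 3 were higher (20%, Usp17lb, Tdpoz2 and Tdpoz3) and 3 lower (20%, Pramel6, Eif1a and Tmem92). Over all genes 9.07% were higher and 12% lower. Only 3 of the 15 reached a mean of 6, and among rows with a mean under 4, 13% were higher and 9.27% lower.

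The 2 rows shared by Ass1, an enzyme of arginine synthesis, and the predicted gene Gm5424 had 10.1 and 10.1 against 9.5 and 9.7, and 9.9 and 10 against 9.4 and 9.6. Over all 1613 rows with several symbols 8.68% were higher and 9.49% lower, and over 12146 rows with no symbol 9.31% were higher and 11.7% lower.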
